A study of Rattus norvegicus with 3 samples.

Results

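The neurotransmitter receptors described here are the 81 genes of the array whose symbol names a receptor or receptor subunit for GABA, glycine, glutamate, acetylcholine, serotonin or dopamine. They were taken by symbol alone, from probe sets that the platform annotation gives a single symbol, so no measured value decides which genes belong. They make up 81 of the 4736 named genes of the array and 127 of its 7006 probe sets with 1 symbol. Receptors for noradrenaline, histamine, adenosine and peptides lie outside the rule.

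Rat transcripts were measured on 3 Affymetrix arrays, labelled 0.0 h, 0.1 h and 1.0 h in a time course. All 3 samples carry the same source label, which names both the pineal gland and the adrenal medulla, and total RNA as the molecule. No treatment, strain, age or number of animals is given in the labels, and it could not be settled whether 0.1 h is a true time. Which of the tissues each single array holds could not be settled either, and the samples are numbered in another order than their times. Time and other differences between the samples cannot be told apart. Each label has 1 array, so a difference between arrays has no replicate check and no test could be run. Precision is limited by having 3 arrays in all.

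Fast transmission runs through receptors that are ion channels built from several subunits: GABA-A and glycine receptors pass chloride, and AMPA, kainate, NMDA, nicotinic and 5-HT3 receptors pass cations. The GABA-B, metabotropic glutamate, muscarinic, dopamine and remaining serotonin receptors act more slowly, through G proteins. In the rat pineal gland, noradrenaline from sympathetic nerves drives melatonin synthesis, and acetylcholine, glutamate and GABA are known to hold it back. In the adrenal medulla, acetylcholine from the splanchnic nerve acts mainly on nicotinic receptors of chromaffin cells to release catecholamines.

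Over all genes of the array 61.6% lay above the intensity floor of 262.9 on all 3 arrays, and the marker lists are to be read against that share. Of the pinealocyte markers 8 of 10 on the array lay above the floor on all 3 arrays and 0 lay below it on all 3, among them Tph1 and Asmt of melatonin synthesis. The floor is the 40th percentile of all values, and values under it are taken only as not measured. Chromaffin cell markers stood above it on all 3 arrays in 6 of 11 cases, but Th, Dbh, Slc18a1 and Slc18a2, which make and store catecholamines, were below it on all 3, at 136.8, 202.4 and 183.0 for Th and at 90.8, 56.1 and 101.6 for Dbh (0.0 h, 0.1 h, 1.0 h). Pnmt, which makes adrenaline, was above it at 610.5, 657.9 and 514.0. Other markers above the floor on all 3 arrays were 1 of 6 of adrenal cortex, 6 of 9 of astrocytes, 4 of 7 of oligodendrocytes and Schwann cells, 10 of 20 of central neurons and 1 of 9 of skeletal muscle. The summed intensity of the lists at 0.0 h, 0.1 h and 1.0 h was 62461, 74046 and 55205 for pinealocytes, 145978, 135450 and 120756 for chromaffin cells, 19390, 11762 and 16095 for adrenal cortex, 85967, 95412 and 92000 for astrocytes, and 8405, 11267 and 8506 for oligodendrocytes and Schwann cells. A few members carried some of these sums: Fdx1 gave 18705, 11142 and 15068 of the adrenal cortex sum, where Star, Cyp11a1 and Cyp11b2 were below the floor on all 3 arrays. In the chromaffin cell sum, Chgb gave 64507, 61155 and 48322 and Scg3 70994, 59630 and 61680. Glul gave 65076, 69118 and 66390 of the astrocyte sum. Some list members differed 2-fold or more. At 0.1 h against 0.0 h, Asmt, 1 of 8 pinealocyte markers read on both arrays, was 2.41-fold higher. The glial marker S100b, 1 of 6 astrocyte and 1 of 4 oligodendrocyte and Schwann cell markers read, was 2.75-fold higher. It gave 1335, 3667 and 2356 of both of those sums. Of all genes 5.74% were higher there and 4.71% lower. At 1.0 h, the pinealocyte marker Pdc read 2.13-fold below 0.0 h (1 of 8) and 2.52-fold below 0.1 h (1 of 9). The neuron marker Nefh (1 of 10) read 2.16-fold above 0.0 h there, against 2.34% of all genes higher and 2.64% lower. Against 0.1 h, the 1.0 h array had Npy 2.18-fold higher and Snap25 2.28-fold lower, each 1 of 10 neuron markers. Npy was also 1 of 6 chromaffin cell markers. The shares of all genes were 4.07% and 5.09%. Other measured Snap25 probe sets stood at -0.24 and 0.99 on the log2 scale. The ratio of 3' to 5' probe sets, a sign of RNA quality, was 10.4, 17.8 and 44.4 for beta-actin and 15.3, 18.6 and 14.1 for Gapdh on the same arrays. The part of these values in the receptor readings was not tested.

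Receptor transcripts were mostly low or not measured. Of the 81 genes, 27 (33.3%) read above the floor on all 3 arrays, against 2918 of the 4736 genes of the array (61.6%). Another 19 were above it on 1 or 2 arrays, and 35 stayed below it on all 3, with intensities of 14.1 to 262.7. Array by array, 36, 35 and 37 receptor genes (44.4%, 43.2% and 45.7%) were above the floor at 0.0 h, 0.1 h and 1.0 h, against 67.6%, 68.7% and 69.6% of all genes. In a mixed tissue, few cells with the transcript and little transcript per cell cannot be told apart.

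Acetylcholine receptors had 9 of 20 genes (45.0%) above the floor on all 3 arrays, the highest share of the 5 groups at this floor. Ionotropic glutamate receptors had 5 of 16 (31.2%), metabotropic glutamate receptors 2 of 7 (28.6%), GABA and glycine receptors 5 of 20, and serotonin and dopamine receptors 6 of 18 (33.3%). The order of the groups changed with the floor: at the 20th percentile ionotropic glutamate receptors led with 13 of 16 genes, against 16 of 20 for acetylcholine receptors, and at the 60th metabotropic glutamate receptors led with 2 of 7, against 4 of 20. By family, every gene of GABA-B (2 of 2) was above the floor on all 3 arrays, and all 6 NMDA subunits were above it on at least 1 array, 4 of them on all 3. At the other end, 0 of 4 AMPA subunits, 0 of 3 glycine subunits and 0 of 1 delta receptor genes were above the floor on all 3 arrays. Ion channel subunits were above the floor on all 3 arrays in 15 of 50 cases and G protein-coupled receptors in 12 of 31 (38.7%).

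**Figure D1:**
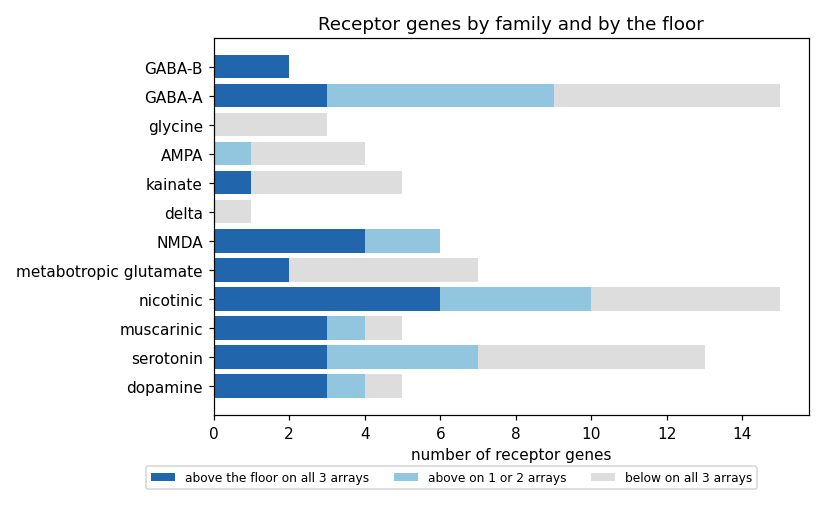
The bars count receptor genes of each family (horizontal axis, number of genes) above the intensity floor of 262.9 on all 3 arrays, on 1 or 2 arrays, or on 0 arrays. Nicotinic subunits give the longest dark bar, 6 of 15, and glycine and delta receptors have only the light one.

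The measured receptors lay mostly between 2 and 8 times the floor. Of the 27, 4 (14.8%) had a mean level over 8 times the floor, 16 (59.3%) stood between 2 and 8 times and 7 (25.9%) under 2 times, with a median of 3.59 times. Over the 2918 genes above the floor on all 3 arrays the shares were 50.4%, 37.7% and 11.9% and the median was 8.20 times. The 4 receptors over 8 times were Chrna3, Chrnb4, Grm6 and Grin2c. A probe set's brightness depends on its probes as well as on the transcript, so these multiples place a gene relative to the floor and do not rank transcript abundance between genes.

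Nicotinic subunits Chrna3 and Chrnb4, which together form the ganglionic type of nicotinic receptor, had the mean readings furthest above the floor. Chrna3 read 17210 at 0.0 h, 14028 at 0.1 h and 16571 at 1.0 h. For Chrnb4 the readings were 14518, 12362 and 15376. On these probe sets both were lowest at 0.1 h and within 1.23-fold and 1.24-fold over the 3 arrays. A dimmer Chrnb4 probe set, also above the floor on every array, was instead highest at 0.1 h, at 444.4, 723.3 and 367.3. Chrna5, an accessory subunit that joins Chrna3 and Chrnb4 in some receptors, was below the floor at 156.4, 236.0 and 257.5. In the RefSeq order of genes on rat chromosome 8 the 3 genes are neighbours, with no other protein-coding gene between them. The promoters of these 3 genes are shown because the readings of their brightest probe sets fell so far apart around the floor while the genes adjoin. The dimmer Chrnb4 probe set lay much nearer to Chrna5, and such a gap does not rank transcripts between genes. They come from the RefSeq promoter table of build GRCr8, which held 61 of the 81 receptor genes, and run from 250 bases before to 50 bases after the gene start. Their positions are chr8:64311202-64311501 on the minus strand for Chrna3, chr8:64333060-64333359 on the minus strand for Chrnb4 and chr8:64265629-64265928 on the plus strand for Chrna5, each written 5′ to 3′ on the gene's strand.
Chrna3: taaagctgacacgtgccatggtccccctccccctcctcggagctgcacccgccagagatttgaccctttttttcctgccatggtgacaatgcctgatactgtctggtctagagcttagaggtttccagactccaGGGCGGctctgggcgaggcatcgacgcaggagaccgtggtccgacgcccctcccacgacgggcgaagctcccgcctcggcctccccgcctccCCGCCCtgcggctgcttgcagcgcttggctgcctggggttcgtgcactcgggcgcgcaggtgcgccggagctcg
Chrnb4: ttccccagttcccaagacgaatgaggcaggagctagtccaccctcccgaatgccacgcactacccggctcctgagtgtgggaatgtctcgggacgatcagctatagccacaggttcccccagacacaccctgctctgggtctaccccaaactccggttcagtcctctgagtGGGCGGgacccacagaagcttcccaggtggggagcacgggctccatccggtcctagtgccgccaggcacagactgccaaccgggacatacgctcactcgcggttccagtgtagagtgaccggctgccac
Chrna5: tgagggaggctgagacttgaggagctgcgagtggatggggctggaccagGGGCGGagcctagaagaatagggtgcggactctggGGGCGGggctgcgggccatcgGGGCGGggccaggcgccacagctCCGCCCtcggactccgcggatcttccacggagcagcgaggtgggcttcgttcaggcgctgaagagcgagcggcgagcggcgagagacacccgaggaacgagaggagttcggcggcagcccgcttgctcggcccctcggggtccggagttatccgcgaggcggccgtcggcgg
Capitals mark GGGCGG on either strand, the GC box that Sp1 proteins bind, found 2 times in Chrna3, 1 time in Chrnb4 and 4 times in Chrna5. GGGCGG was present in 29 of the 61 receptor promoters (47.5%), in 56.2% of the 3871 promoters of genes on the array and in 34.9% of all 27457 promoters of the table. TAATCC, the core bound by the pineal and retinal factors Crx and Otx2, and TGACGTCA, the full cyclic AMP response element, were searched on both strands and were not in these 3 windows. TAATCC was present in 7.1% of all promoters, 5.7% of those of array genes and 6 of 61 receptor promoters (9.8%), and TGACGTCA in 1.9%, 2.4% and 0 of 61. These are matches of letters in a short window and are given as a description.

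Chrna7, the subunit that forms receptors by itself in brain, read 551.4 at 0.0 h, 431.4 at 0.1 h and 422.6 at 1.0 h, highest at 0.0 h. Of its other 2 probe sets, both lower, 1 passed the floor at 0.1 h alone, at 124.9, 373.8 and 230.7. The other was below the floor on all 3 arrays, at 201.0, 243.6 and 189.4. Chrna4 and Chrnb2, which pair in the commonest brain nicotinic receptor, were at the floor or below it. Chrna4 had 263.1, 136.4 and 312.4, above the floor at 0.0 h and 1.0 h, and Chrnb2 had 262.7, 175.7 and 170.1, below it on all 3. Chrnb3, an accessory subunit, read 341.3, 72.1 and 262.3, above the floor on the 0.0 h array alone. Chrna2, Chrna6 and Chrna9 were also below the floor on all 3 arrays.

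The 5 subunits of the skeletal muscle nicotinic receptor were all above the floor on at least 1 array. Chrng, the gamma subunit of the fetal form, had 1473, 1145 and 1052 at 0.0 h, 0.1 h and 1.0 h, highest at 0.0 h. Chrna1, the ligand-binding alpha subunit, read 510.2, 558.1 and 327.8 and was lowest at 1.0 h. Chrnb1, the beta subunit, stood just above the floor at 276.3, 378.5 and 365.3. Chrnd, the delta subunit, read 423.6, 283.0 and 174.4 and so was measured at 0.0 h and 0.1 h, while Chrne, the epsilon subunit of the adult form, passed the floor at 0.1 h alone, with 63.2, 369.1 and 68.7. Skeletal muscle markers beside them summed to 1924, 2799 and 3275, lowest on the 0.0 h array, with 1 of 9 above the floor on all 3 arrays and 6 of 9 below it on all 3. Myh1, a muscle myosin, was above the floor on every array (1033, 1421 and 1838), and Ckm, muscle creatine kinase, at 0.1 h and 1.0 h (146.7, 478.0 and 496.7). Acta1, skeletal muscle actin, stayed below it (51.9, 131.7 and 126.9). The part of muscle RNA in these readings was not tested.

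Muscarinic receptors were represented by Chrm3, Chrm4 and Chrm5. Chrm3, which couples to Gq and calcium release, read 831.2 at 0.0 h, 840.7 at 0.1 h and 1204 at 1.0 h, so the 1.0 h array stood above the other two. Chrm4, which couples to Gi, had 762.9, 659.8 and 671.6, all within 1.16-fold. For Chrm5, a Gq-coupled receptor, the intensities were 532.8, 327.6 and 413.0, lowest at 0.1 h. Chrm2, a Gi-coupled receptor, passed the floor at 1.0 h alone, with 179.7, 153.2 and 302.0, and Chrm1 was below it on all 3 arrays. The other probe sets of Chrm3 and Chrm4 did not pass the floor on any array (232.4, 201.1 and 37.5 for Chrm3, and 12.8, 13.3 and 12.2 for Chrm4).

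Among glutamate receptors the reading furthest above the floor was that of Grm6, a Gi/o-coupled receptor best known as the light-signalling receptor of retinal ON bipolar cells. Its single probe set had 11394 at 0.0 h, 18649 at 0.1 h and 9722 at 1.0 h. The 0.1 h array stood 1.64-fold above 0.0 h, and the 1.0 h array 1.92-fold below 0.1 h. Grm4, another receptor of the same class, read 1199, 1467 and 1499, lower at 0.0 h than on both later arrays. The other 5 metabotropic genes were below the floor on all 3 arrays, at 35.5 to 262.4: Grm2, Grm3, Grm5, Grm7 and Grm8. Grm3, known in rat pinealocytes as the receptor through which glutamate holds back melatonin synthesis, read 52.8, 35.5 and 100.4, and Grm5 56.6, 56.9 and 71.3.

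NMDA receptor subunits were measured more completely than any other ion channel family of glutamate. Grin1, the obligatory glycine-binding subunit, had 797.9 at 0.0 h, 1213 at 0.1 h and 922.5 at 1.0 h, highest at 0.1 h. Grin2c, a subunit best known from cerebellar granule cells, read 4906, 6138 and 4873, also highest at 0.1 h. Grin2b, which is common in the young forebrain, had 1448, 1359 and 1586, and Grin2a, common in the adult forebrain, 566.2, 541.5 and 568.4. These last 2 genes stayed within 1.17-fold and 1.05-fold, and Grin2a had the narrowest range of the 27 receptors. Grin2d read 252.9, 431.3 and 535.4, below the floor at 0.0 h alone, and its 1.0 h value was at least 2.04-fold above 0.0 h when 0.0 h is set at the floor. Its other probe set ran differently, with 526.7, 656.6 and 163.3. Grin3a, which lowers calcium entry through the channel, read 205.2, 627.2 and 355.8, and its 0.1 h value was at least 2.39-fold above 0.0 h on the same reckoning. A dimmer Grin3a probe set was also highest at 0.1 h, with 298.6, 421.9 and 197.5. Its log2 difference of 0.50 at 0.1 h against 0.0 h lay under that bound. The dimmest Grin3a probe set was below the floor on all 3 arrays and highest at 0.0 h, with 128.5, 74.6 and 73.9.

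Outside the NMDA family, glutamate channel subunits were sparse. Grik5, a kainate subunit with high affinity for the ligand, read 661.1, 1033 and 781.4 at 0.0 h, 0.1 h and 1.0 h, highest at 0.1 h. Gria1, an AMPA subunit, had 154.9, 346.5 and 398.7 and passed the floor on both later arrays, at most 1.52 times above it. The remaining 8 genes, Gria2, Gria3, Gria4, Grik1, Grik2, Grik3, Grik4 and Grid1, were below it on all 3 arrays, with 26.4 to 222.2. Central neuron markers beside these receptors summed to 106102, 103486 and 77864. Calb1 alone gave 53582, 38196 and 35176 of this sum, and Gap43, given below, was the next largest part. Camk2a (77.8, 43.3 and 31.2) and Slc17a7 (33.1, 32.1 and 38.6), which mark forebrain excitatory neurons, were below the floor on all 3 arrays. Snap25, a synaptic release protein, stood well above it at 5475, 8078 and 3539, as did Gap43 of growing axons at 27426, 32578 and 21313. The part of central neuron RNA in the receptor readings was not tested.

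Both subunits of the GABA-B receptor were above the floor on every array. Gabbr1, the subunit that binds GABA, read 1203 at 0.0 h, 1937 at 0.1 h and 2383 at 1.0 h. Gabbr2, the subunit that couples to the G protein, had 1535, 1786 and 2289. Each was lowest at 0.0 h and highest at 1.0 h, and at 1.0 h Gabbr1 stood 1.98-fold and Gabbr2 1.49-fold above 0.0 h. The second-brightest of the 4 probe sets of Gabbr1 was highest at 0.1 h instead, with 696.9, 1108 and 800.7, which puts 1.0 h above 0.0 h by only 0.20 on the log2 scale, against 0.99 for the brighter one. The second-brightest of the 3 probe sets of Gabbr2 read 44.0, 349.6 and 166.0, above the floor at 0.1 h alone.

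GABA-A subunits above the floor on all 3 arrays were the delta, epsilon and rho1 subunits, and none of the alpha, beta or gamma subunits that make up the commonest synaptic receptor. Gabrr1, the rho1 subunit best known from the retina, had 1263, 1080 and 759.6 at 0.0 h, 0.1 h and 1.0 h, lowest at 1.0 h. Gabrd, the delta subunit of extrasynaptic receptors, read 358.1, 503.8 and 608.0, lowest at 0.0 h. Gabre, the epsilon subunit, had 325.4, 548.0 and 460.2 and was also lowest at 0.0 h. A second Gabrd probe set read 138.6, 529.2 and 571.9, below the floor at 0.0 h and above it on both later arrays.

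Several alpha, beta and gamma subunits crossed the floor from array to array. Gabrg1, a gamma subunit, read 298.9, 358.8 and 76.1, above the floor at 0.0 h and 0.1 h. Among the alpha subunits, Gabra2 (135.1, 199.2 and 282.8) passed it at 1.0 h alone, and Gabra3 (309.4, 221.0 and 234.4) and Gabra4 (293.0, 194.6 and 126.7) at 0.0 h alone. The beta subunit Gabrb2 passed it at 0.1 h alone (242.4, 283.0 and 51.2), and Gabrr3, the rho3 subunit, at 0.0 h alone (287.3, 19.6 and 32.4). On the probe sets read here these 6 genes stood at most 1.36 times above the floor. The dimmer Gabra3 probe set also passed it at 0.0 h alone (386.0, 140.4 and 150.0). Gabra5, Gabra6, Gabrb1, Gabrg3, Gabrp and Gabrr2 were below the floor on all 3 arrays, as were the glycine receptor subunits Glra1, Glra2 and Glra3, with 19.2 to 261.8 over these 9 genes.

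Dopamine receptors above the floor on all 3 arrays were Drd3, Drd4 and Drd5. Drd4, a Gi-coupled receptor known in the rat pineal gland for a strong daily rhythm of its transcript, read 1123 at 0.0 h, 713.2 at 0.1 h and 1416 at 1.0 h. The 1.0 h value was 1.99-fold above 0.1 h, and the 0.1 h value was 1.57-fold below 0.0 h. Drd3, also Gi-coupled, had 1634, 1828 and 1587, all within 1.15-fold. Drd5, which raises cyclic AMP, read 954.1, 1002 and 779.3, lowest at 1.0 h. Drd1, which also raises cyclic AMP, lay around the floor at 244.0, 258.3 and 299.8, and Drd2 was below it on all 3 arrays. The other probe set of Drd3 was far under the floor, at 34.1, 27.6 and 19.9.

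Serotonin receptors were led by Htr6, Htr3a and Htr5a. Htr6, which raises cyclic AMP, had 499.7 at 0.0 h, 996.8 at 0.1 h and 806.8 at 1.0 h. Its 0.1 h reading was 1.99-fold above 0.0 h, the highest such ratio among the receptors measured on both arrays. Htr3a, the serotonin-gated channel subunit, read 666.9, 626.8 and 608.4, within 1.10-fold. Htr5a had 518.2, 470.9 and 394.4, lowest at 1.0 h. Both other Htr3a probe sets were below the floor on all 3 arrays.

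Of the other serotonin receptors, 4 crossed the floor. Htr1d, a Gi-coupled receptor, read 549.1 at 0.0 h, 91.6 at 0.1 h and 344.5 at 1.0 h, so that 0.1 h was at least 2.09-fold below 0.0 h with the floor in place of the 0.1 h value. Htr1b, its close relative, passed the floor at 0.0 h alone (372.6, 65.4 and 63.9), and Htr2b, a Gq-coupled receptor, at 1.0 h alone (42.7, 145.2 and 275.3). Htr5b was above it on both later arrays (208.7, 347.4 and 342.9). Htr1a, Htr1f, Htr2a, Htr2c, Htr4 and Htr7 were below it on all 3 arrays. Together with Drd2 these genes ranged over 14.1 to 251.1.

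**Figure D2:**
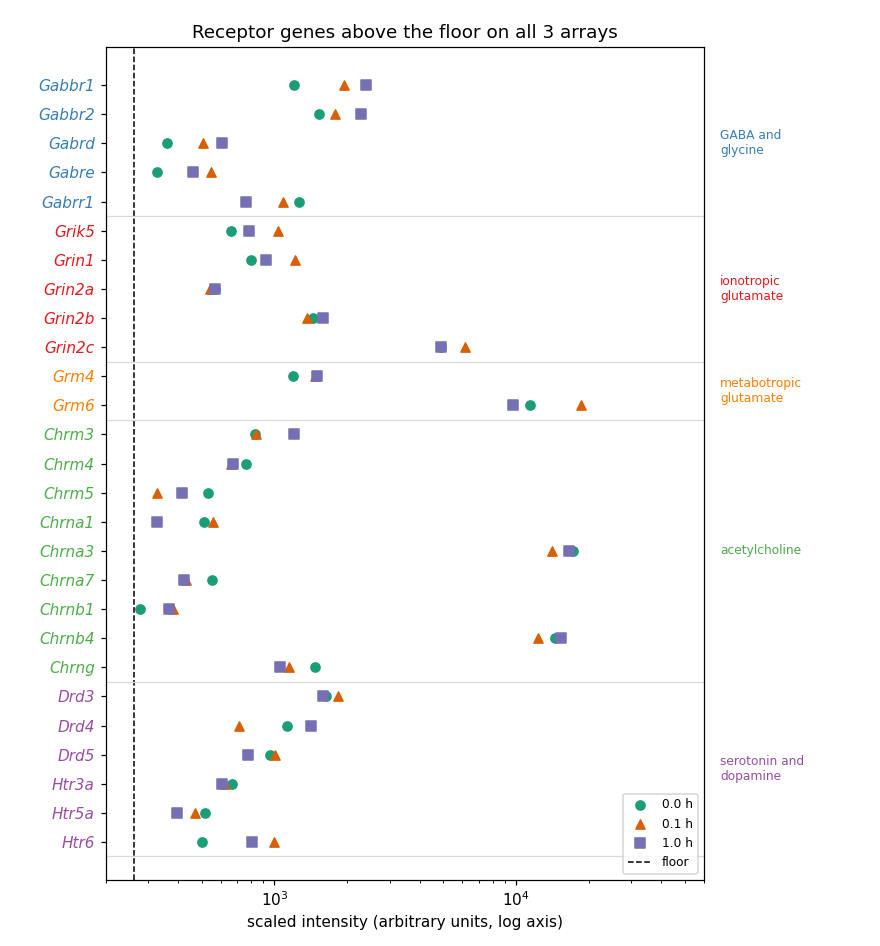
Points give the intensity (log axis) of each of the 27 receptor genes above the floor on all 3 arrays, on the 0.0 h, 0.1 h and 1.0 h arrays, and the line marks the floor of 262.9. Chrna3, Chrnb4 and Grm6 lie apart from the others at the right, at the highest intensities, and the 3 points of Grin2a almost coincide.

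The floor itself decides which receptors count as measured. The lowest single readings just inside it belonged to Chrnb1 (276.3), Gabre (325.4) and Chrm5 (327.6), and those just outside it, among genes that it kept out of the 27, to Grin2d (252.9), Drd1 (244.0) and Gabra3 (221.0). Of the 19 genes that crossed it, 11 were above on 1 array only, 5 of them at 0.0 h, 2 at 0.1 h and 4 at 1.0 h. Of the 8 above on 2 arrays, 4 were below at 0.0 h, 2 at 0.1 h and 2 at 1.0 h. Of the 19, Grin3a, Htr1d and Grin2d reached 2 times the floor on 1 array or more.

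No receptor read on both arrays of a comparison was 2-fold apart, though several came close to it: Htr6 (1.99-fold, 0.1 h against 0.0 h), Gabbr1 (1.98-fold, 1.0 h against 0.0 h) and Drd4 (1.99-fold, 1.0 h against 0.1 h). Between 0.1 h and 0.0 h, the counts of receptor genes 2-fold or more higher and lower at 0.1 h were 0 and 0 of 29, against 5.74% and 4.71% of all genes read on both arrays. For 1.0 h against 0.0 h the counts were again 0 and 0 of 29, against 2.34% and 2.64% of all genes. For 1.0 h against 0.1 h they were 0 and 0 of 31, against 4.07% and 5.09%. With the values as deposited, Gabbr1 and Drd4 passed 2-fold in their comparisons, at log2 differences of 1.04 and 1.08. The share of all genes at least 2-fold apart depended somewhat on the level: under 2 times the floor, between 2 and 8 times and above 8 times it was 8.5%, 11.5% and 10.3% for 0.1 h against 0.0 h, 4.9%, 6.1% and 4.2% for 1.0 h against 0.0 h, and 6.0%, 10.3% and 9.4% for 1.0 h against 0.1 h. Since both arrays had to be above the floor, genes near it can show only limited folds. Grin3a, Grin2d and Htr1d, with bounds over 2-fold against the floor, are not in these counts because 1 of their arrays was below it.

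A fold of 1.5 separated a few receptors. Of the 29 read at 0.1 h and 0.0 h, 6 were at least 1.5-fold higher (Htr6, Gabre, Grm6, Gabbr1, Grik5 and Grin1), against 15.1% of all genes, and 2 were at least 1.5-fold lower (Chrm5 and Drd4), against 14.2%. Between 1.0 h and 0.0 h, 3 were higher (Gabbr1, Gabrd and Htr6), against 10.1%, and 3 were lower (Gabrr1, Htr1d and Chrna1), against 11.1%. Between 1.0 h and 0.1 h, 1 was higher (Drd4), against 14.6%, and 3 were lower (Grm6, Grin3a and Chrna1), against 16%. The 2 comparisons with 0.0 h share that array, so a low or high reading there enters both.

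On the log2 scale the receptors as a whole were centred near 0, as all genes were. Their median difference was 0.07 at 0.1 h against 0.0 h (n = 29 genes, middle 50% of genes from -0.23 to 0.45), 0.01 at 1.0 h against 0.0 h (n = 29, -0.29 to 0.33) and -0.03 at 1.0 h against 0.1 h (n = 31, -0.32 to 0.26). The SD of the differences over genes, taken from the median absolute deviation, was 0.45, 0.49 and 0.45 for receptors and 0.52, 0.43 and 0.56 for all genes. Within 1 such SD of all genes lay 20 of 29, 19 of 29 and 27 of 31 receptors. Genes are not replicates, so these SDs describe these arrays only.

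**Figure D3:**
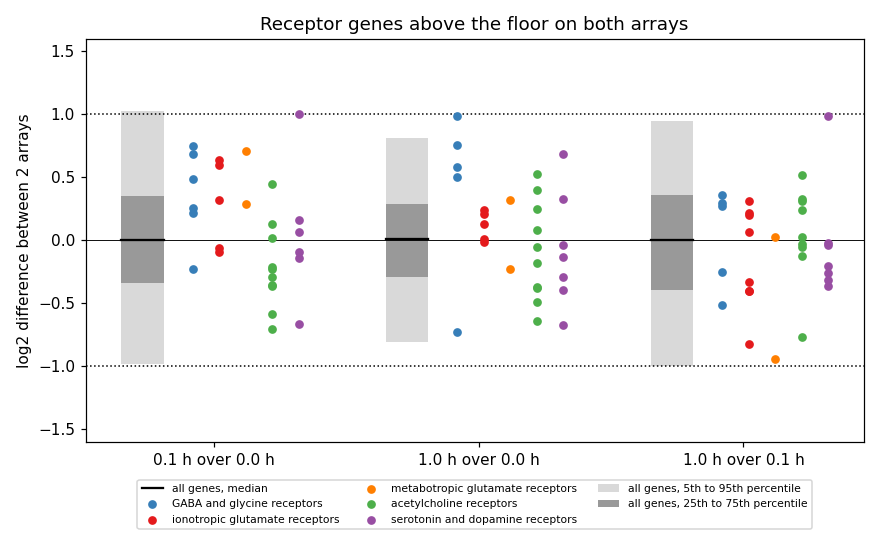
Each point is the log2 difference of 1 receptor gene between 2 arrays (0.1 h against 0.0 h, 1.0 h against 0.0 h and 1.0 h against 0.1 h), by transmitter group, with dotted lines at 2-fold and grey bars for the 5th to 95th and 25th to 75th percentile of all genes. All points lie between the guide lines, with Htr6 (1.00), Gabbr1 (0.99), Drd4 (0.99) and Grm6 (-0.94) nearest to them.

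By transmitter, GABA receptors lay above 0 in 5 of 6 genes at 0.1 h against 0.0 h (median 0.38) and in 4 of 5 at 1.0 h against 0.0 h (median 0.58), Gabrr1 being the exception in both. These medians stayed above 0 under every scaling tried, with the spike-in scaling giving 0.10 (3 of 6 genes above 0) and 0.77 (4 of 5). When the probe sets of each gene were averaged, the second median was 0.20 (3 genes). Acetylcholine receptors lay below 0 in 7 of 10 genes at 0.1 h against 0.0 h (median -0.26, and -0.54 with the spike-in scaling) and in 6 of 10 at 1.0 h against 0.0 h (median -0.12, but 0.08 with the spike-in scaling). Chrnb1 (0.45 and 0.40) and Chrm3 (0.02 and 0.53) lay above 0 in both. Ionotropic glutamate subunits had medians of 0.32 and 0.13 in the same comparisons, with 3 of 5 and 4 of 5 genes above 0, and metabotropic glutamate receptors, with 2 genes, 0.50 and 0.05. For serotonin and dopamine receptors the medians were -0.01 and -0.13, the second of which was 0.06 with the spike-in scaling. In the comparison of 1.0 h with 0.1 h the median was 0.27 for GABA receptors. It was 0.74 with the spike-in scaling, -0.25 with the mean of all probe sets, and -0.18 over 2 genes with the second-brightest one. Ionotropic glutamate receptors had -0.13 and metabotropic ones -0.45, which became 0.34 and 0.02 with the spike-in scaling. The acetylcholine median was 0.03, and 0.50 with the spike-in scaling (8 of 9 genes above 0). It was -0.12 with the mean of all probe sets, and -0.98 for the 1 gene measured on its second-brightest one. Serotonin and dopamine receptors had -0.20, and 0.27 with the spike-in scaling. All 4 serotonin receptors read on both of these arrays lay below 0, from -0.31 to -0.02, and all 7 serotonin and dopamine receptors lay above 0 with the spike-in scaling. That scaling, which makes the spiked-in control RNAs equal, moved the median of all genes to -0.28, 0.21 and 0.47 in the 3 comparisons, so only differences relative to other genes of the arrays are given here. The groups are small and share 3 arrays, and the medians are a description.

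Over all 3 arrays the ratio of the highest to the lowest reading was 1.05 to 1.99 among the 27 receptors, with a median of 1.40. It was under 1.5-fold for 16 of them (59.3%) and reached 2-fold for 0. Over the 2918 genes above the floor on all 3 arrays 50.5% were under 1.5-fold and 17.9% at 2-fold or more. The widest receptors were Htr6 (1.99), Drd4 (1.99), Gabbr1 (1.98) and Grm6 (1.92), and the narrowest were Grin2a (1.05), Htr3a (1.10), Drd3 (1.15), Chrm4 (1.16) and Grin2b (1.17). The highest reading fell on the 0.0 h array for 8 receptors, on the 0.1 h array for 10 and on the 1.0 h array for 9.

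Different probe sets of the same receptor often did not bear each other out. Of the 27 receptors, 15 had a single probe set and 12 had several. In 4 of those 12 (33.3%) another probe set was also above the floor on all 3 arrays, against 699 of 1203 genes of the array (58.1%). These were Chrnb4, Gabbr1, Grin1 and Grin2c. The dimmer Chrnb4 probe set, given above, had log2 differences of 0.70 at 0.1 h against 0.0 h and -0.98 at 1.0 h against 0.1 h, opposite in sign to -0.23 and 0.31 for the brighter one. Grin2c had 1932, 2787 and 3369 on its dimmer probe set, highest at 1.0 h, and Grin1 had 326.8, 452.3 and 524.2, also highest at 1.0 h. The probe set names mark the brighter ones of Gabbr1 and Grin2c as chosen under relaxed probe selection rules. In Chrm3, Chrm4, Drd3 and Htr3a every other probe set was below the floor on all 3 arrays. Grin2a had a dimmer probe set at 33.5, 180.3 and 330.2, above the floor at 1.0 h alone.

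**Figure D4:**
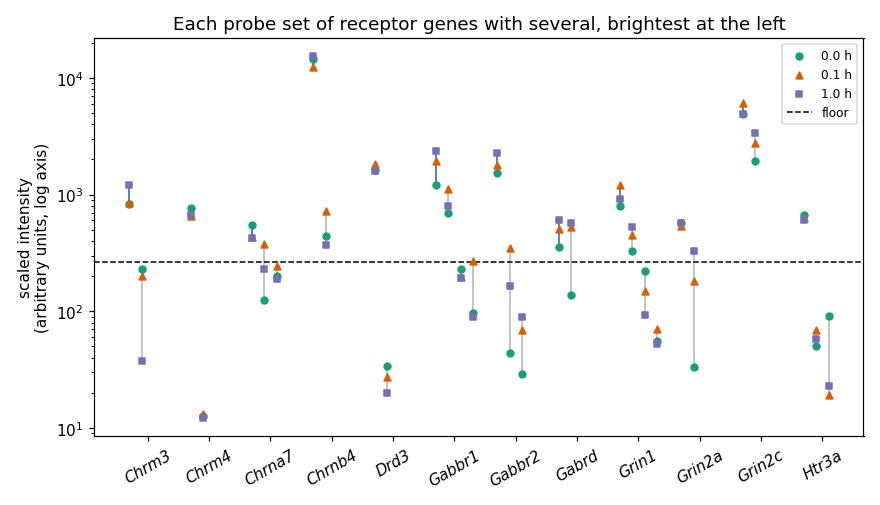
Each column of points is 1 probe set of the 12 receptor genes with several, brightest at the left, with its intensity (log axis) on the 0.0 h, 0.1 h and 1.0 h arrays and the floor of 262.9 dashed. Chrnb4 had a probe set at 12362 to 15376 and one at 367.3 to 723.3, while the dimmer probe set of Chrm4 lay at 12.2 to 13.3.

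Proteins that anchor and traffic these receptors were read for 33 of the 50 genes listed, 18 of them above the floor on all 3 arrays, against 61.6% of all genes. Gabarap, which carries GABA-A receptors, and Gphn, the gephyrin scaffold, were among them, at 25416, 19235 and 23249 and at 2977, 2648 and 2629. Between 0.1 h and 0.0 h, 2 of 18 were higher by 2-fold or more and 1 was lower, against 5.74% and 4.71% of all genes, with a median log2 difference of -0.03. Dlg4, the PSD-95 scaffold of glutamate synapses, read 376.9, 1022 and 431.1, a single high value at 0.1 h and 2.71-fold above 0.0 h. Grina, an NMDA receptor-associated membrane protein that is no receptor subunit, had 5066, 10561 and 7043, 2.08-fold higher at 0.1 h than at 0.0 h. Nrxn3, a presynaptic adhesion protein, read 7871, 2638 and 7040, 2.98-fold lower at 0.1 h than at 0.0 h. Between 1.0 h and 0.0 h 0 of 19 were higher or lower by 2-fold, against 2.34% and 2.64% of all genes, with a median of 0.00. Between 1.0 h and 0.1 h 2 of 18 were higher (Nrxn3 2.67-fold and the pentraxin Nptx1 2.09-fold, although both other measured probe sets of Nptx1 were near 0, at -0.06 and -0.04 on the log2 scale), 1 was lower (Dlg4 2.37-fold), and the median was 0.22. The shares of all genes there were 4.07% and 5.09%.

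Genes that make, break down or carry the transmitters were read for 31 of 42 listed, with 17 above the floor on all 3 arrays, against 61.6% of all genes. The list also holds Glra1, a glycine receptor subunit and 1 of the 81 receptors, which was below the floor on all 3 arrays and enters no difference. Glul, glutamine synthetase, read 65076, 69118 and 66390, and Tph1, which starts serotonin synthesis, 22069, 16991 and 22611. Of 18 genes at 0.1 h against 0.0 h, with a median of -0.11, Ache, which splits acetylcholine, was 2.04-fold higher (400.1, 815.4 and 548.2) and the GABA transporter Slc6a11 2.24-fold lower (705.6, 315.3 and 347.5), where 5.74% of all genes were higher and 4.71% lower. The comparison of 1.0 h with 0.0 h had 0 of 17 genes higher and 3 lower, against 2.34% and 2.64% of all genes, with a median of -0.14. These were Maob, a monoamine oxidase (6645, 5174 and 2298, 2.89-fold), Slc6a11 (2.03-fold) and the dopamine transporter Slc6a3 (654.3, 452.9 and 327.1, 2.00-fold). Maob was lowest at 1.0 h by a wide margin. In that of 1.0 h with 0.1 h 0 of 18 were higher and 2 lower, Maob (2.25-fold) and the glycine transporter Slc6a5 (2.13-fold), against 4.07% and 5.09% of all genes, with a median of -0.15.

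Effectors and kinases below the receptors were read for 33 of 40 genes, 16 of them above the floor on all 3 arrays, against 61.6% of all genes. Gnas, the stimulatory G protein subunit, gave 171533, 184797 and 210128. The 0.1 h array had 1 of 18 genes higher than 0.0 h, Rgs4, which shortens Gi and Gq signals (763.7, 2055 and 1169, 2.69-fold), and 0 lower, with a median of -0.02 and against 5.74% and 4.71% of all genes. The 1.0 h array had 0 of 18 genes higher and 1 lower than 0.0 h, against 2.34% and 2.64% of all genes. The median was -0.14, and the lower gene was the calcium-dependent kinase Camk2d (22072, 16773 and 10464, 2.11-fold). A second measured probe set of Camk2d ran the other way, at 0.22 on the log2 scale. Against 0.1 h it had 1 of 16 higher, the protein kinase C gene Prkce (469.5, 263.0 and 561.2, 2.13-fold, from a 0.1 h value at the floor), and 0 lower, with a median of -0.16 and against 4.07% and 5.09% of all genes.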

How the data were processed

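RNA of 3 rat samples, 1 per time label, was measured on 1 Affymetrix array each. The values deposited by the authors are 1 linear intensity per probe set. The software, the background correction and the summary of probes were not given in the sources used here. Deposited intensities without their highest and lowest 2% averaged 2503.7, 2503.9 and 2503.7 at 0.0 h, 0.1 h and 1.0 h, so the arrays shared a mean before deposit, and their medians were 401.5, 430.2 and 457.6.

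Of 8799 probe sets, 59 controls were left out of all counts. Of the other 8740, 7006 had 1 symbol in the platform annotation, naming 4736 genes, and the rest were not used for genes. Intensities were taken to log2 and brought to a common median. The floor was the 40th percentile of all values (262.9), and the arrays were then shifted until their medians over the 4577 probe sets above it on all 3 were equal. The shifts were 0.008, 0.042 and -0.050 in all, and 5140, 5291 and 5319 probe sets were above the floor. Each gene was read from the probe set whose mean log2 value was highest. A difference was taken only where both arrays were above the floor, and 2-fold or more was counted. A bound sets the array below the floor at the floor. There were no p-values or standard errors, since each label has 1 array.

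Receptor genes above the floor on at least 1 array are named with all values, and the others by name and range, except Chrna5, Chrnb2, Grm3 and Grm5, whose values are printed too and which were chosen after their values were seen. From the gene lists the text names up to 4 members per direction that differ 2-fold or more, some of the brightest members, and defining markers. The symbol rule that defines the members uses no measured value, but the rule, the lists and these choices were made with earlier results of these data known. The alternatives were the deposited values, cyclic loess and quantile normalisation (R 4.3.3, limma 3.58.1), scaling to 9 spike-in probe sets, floors at the 20th and 60th percentile, the mean of a gene's probe sets and the second-brightest one. For the second-brightest one, probe sets with _g_at in their name were left out before ranking. The steps were tested on simulated data with Python 3.11.15.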

Additional observations from a re-analysis of the deposited data

How the results depend on the processing

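The count of receptors above the floor on all 3 arrays follows from where the floor is put and which probe set is read. With the floor at the 20th percentile (an intensity of 82.1) it was 52 of 81 genes (64.2%, against 77.5% of all genes), and at the 60th (731.3) 14 (17.3% against 44.4%). By group the 20th and 60th percentiles gave 9 and 3 genes for GABA and glycine, 13 and 3 for ionotropic glutamate, 16 and 4 for acetylcholine, and 10 and 2 for serotonin and dopamine receptors, and the 20th gave 4 for metabotropic glutamate receptors. The mean of all probe sets gave 19 of 81 genes (23.5%, against 54.9% of all genes). By group these were 3 GABA and glycine, 4 ionotropic glutamate, 2 metabotropic glutamate, 6 acetylcholine and 4 serotonin and dopamine receptors. The second-brightest probe set gave 3 of the 32 genes that have one: 1 of 8 GABA and glycine, 1 of 10 ionotropic glutamate, 0 of 1 metabotropic glutamate, 1 of 6 acetylcholine and 0 of 7 serotonin and dopamine receptors. Probe sets with _g_at in their name were left out of that ranking. Grin1 was therefore read there from a probe set at 220.1, 149.3 and 92.1. Its probe set at 326.8, 452.3 and 524.2, above the floor on all 3 arrays, was not counted. In each setting the receptor share stayed under that of all genes.

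The counts of 0 at 2-fold moved with scaling, floor and threshold. With the floor at the 20th percentile, 2 were higher and 3 lower at 0.1 h against 0.0 h, 4 higher and 2 lower at 1.0 h against 0.0 h, and 3 higher at 1.0 h against 0.1 h. Gabbr1 passed 2-fold at 1.0 h against 0.0 h with the deposited values (1 gene, log2 1.04), the spike-in scaling (1 gene, 1.18) and the 60th percentile (1 gene, 1.01). Drd4 passed it at 1.0 h against 0.1 h with the deposited values (1 gene, 1.08), quantile normalisation (1 gene, 1.03) and the spike-in scaling (1 gene, 1.46). A fold of 1.5, added after seeing the data, gave 6 higher and 2 lower, 3 and 3, and 1 and 3 in the order 0.1 h against 0.0 h, 1.0 h against 0.0 h and 1.0 h against 0.1 h.

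The median log2 differences in that order moved to -0.21, 0.20 and 0.44 with the spike-in scaling, which shifted the medians of all genes to -0.28, 0.21 and 0.47. The receptor medians relative to all genes kept their value there, by construction. The mean of all probe sets gave 0.18 and -0.19 in the first and last comparison, and the 60th percentile -0.15 in the last. The second-brightest probe set gave 0.53 (5 genes), 0.20 (3 genes) and -0.18 (4 genes). Of 519 recomputed differences of single receptors, 510 moved by less than 1 SD over all genes and 9 by more: 3 with the mean of all probe sets, and 6 of 10 with the second-brightest one (Chrnb4, Gabbr1 and Grin2c). Many of the 519 could not move that far. The deposited values, the spike-in scaling and the other floors shift all genes of a comparison alike, by less than 1 SD. Receptors with a single probe set keep their value when probe sets are averaged. The 510 are therefore no measure of stability. No paired analysis was possible because each time label has 1 array, and no array could be left out for the same reason.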

Other observations

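The receptor genes differed in length along the genome by whether they were measured. In the RefSeq gene table of the assembly GRCr8, all 81 receptor genes had a span from first to last base. The median span was 18.7 kb for the 27 genes above the floor on all 3 arrays, 42.4 kb for the 19 above it on 1 or 2 arrays, and 124.6 kb for the 35 below it on all 3. Spans over 100 kb were held by 5 of 27, 6 of 19 and 21 of 35 genes. The span ran from 3.1 kb (Drd5) to 477.6 kb (Grin2b) in the 27, from 4.5 kb (Drd1) to 319.6 kb (Gria1) in the 19 and from 1.4 kb (Htr1f) to 925.7 kb (Grm8) in the 35. Over all genes of the array with a match the medians were alike, 21.5 kb for 2908 genes above the floor on all 3 arrays and 21.2 kb for 1127 genes below it on all 3. This difference was noticed after the values had been seen and was not tested.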
